A study of Mus musculus with 14 samples.

Results

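The MAF9-specific WDR5 peaks are sites where WDR5 was called in MAF9 cells with and without inhibitor but in neither condition of a second cell line that carries floxed Mll1. They were chosen from the DMSO WDR5 list as autosomal peaks of 500 bp or less that shared at least 1 bp with a DMSO H3K4me2 peak and with an MM-401 WDR5 peak, and with no EtOH or 4OHT WDR5 peak. Of the 14481 DMSO WDR5 peaks, 14289 lay on autosomes, 13744 of those were 500 bp or less, 12190 of those lay in H3K4me2, 4766 of those were also called under MM-401, and 2039 met the whole rule. WDR5 in all 4 lists and H3K4me2 under DMSO therefore chose the peaks, and these values are a description. H3K4me2 in the other 3 conditions, MLL1 and the width of the H3K4me2 peak around each site were not used in the choice, nor was the chromosome beyond the limit to autosomes.

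The study mapped WDR5, H3K4me2 and MLL1 by chromatin immunoprecipitation followed by sequencing (ChIP-seq) in mouse MLL-AF9 leukemia cells whose MLL1 complex was inhibited or whose Mll1 gene was to be deleted. MAF9 cells, which are mouse bone marrow cells transduced with the MLL-AF9 fusion, were kept for 2 days with MM-401 at 20 µM or with its solvent DMSO. Cells with the genotype MLL1 flox/flox, ER-cre+/-, also transduced with MLL-AF9 and here called Mll1 flox cells, received 4-hydroxytamoxifen (4OHT) at 400 nM for 2 days, which activates the Cre recombinase, or ethanol (EtOH). All cells carried MLL-AF9 and grew in IMDM with 15% FBS and IL-3 at 10 ng/ml, and each ChIP used 15 µl of antibody. Each condition and antibody had 1 library, so there was no replicate error, and the cell line cannot be told apart from the culture and the experiment. MLL1 was mapped in MAF9 cells only, so the deletion of Mll1 under 4OHT could not be checked from the peak lists. The study's methods state that genotyping was used to determine how efficient the deletion was.

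WDR5 is a core subunit of the MLL and SET1 family of histone methyltransferase complexes and holds the catalytic subunit in its active assembly. H3K4me2, the dimethylated form of histone H3 lysine 4 that these enzymes place, marks both promoters and enhancers. MM-401 is a small molecule that keeps MLL1 from binding WDR5 and leaves the other family members free to bind WDR5. In MLL-rearranged leukemia the MLL-AF9 fusion lacks the methyltransferase domain, whereas the normal MLL1 protein keeps it.

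The lists held positions only. A peak that is absent from a list was not called there, and the read depth behind each list is unknown. The WDR5 lists held 14481 to 41054 peaks and the H3K4me2 lists 91305 to 105136 peaks, with the Mll1 flox WDR5 lists the longer pair. Shares below carry 95% Wilson intervals, differences of shares Newcombe intervals and medians order-statistic intervals. Such intervals reflect only how many peaks were counted, taking each peak as independent of its neighbours, and say nothing of the spread between cultures.

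Among the 4766 eligible peaks, 1084 were called in both Mll1 flox lists, 1015 in EtOH only and 628 in 4OHT only, which left 42.8% (41.4 to 44.2%) as MAF9-specific. The 1084 peaks, called in all 4 WDR5 lists, serve below as the shared peaks. Of the 7424 otherwise similar DMSO peaks that were not called under MM-401, 4636, or 62.4% (61.3 to 63.5%), were in neither Mll1 flox list. The median MAF9-specific peak measured 200 bp, with quartiles of 150 and 275 bp, and the median shared peak 300 bp. The share of eligible peaks that were MAF9-specific was 61.6% at widths of 75 to 100 bp, 54.8% at 101 to 200 bp, 41.3% at 201 to 300 bp and 23.7% at 301 to 500 bp. The narrower an eligible peak was, the more often it was missing from the Mll1 flox lists. A wider peak shares 1 bp with another list more easily, so this trend is not independent of the overlap rule.

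The limits of the rule cut through a continuous set. Just inside the width limit, 8 MAF9-specific peaks were 500 bp wide and 19 were 475 bp wide. Just outside, 4 peaks of 525 bp met the rest of the rule, of 20 wider than 500 bp in all. Of the MAF9-specific peaks, 86 touched a Mll1 flox WDR5 peak without sharing a base, and 114 eligible peaks were left out for an overlap of 1 to 25 bp. On the other side, 112 MAF9-specific peaks were kept for an overlap of 1 to 25 bp with an MM-401 peak. A further 20 peaks of chromosomes X and Y met the rest of the rule.

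The MM-401 peak over a MAF9-specific site had a median width of 225 bp. It was wider than the DMSO peak at 1048 sites (51.4%), as wide at 196 and narrower at 795. It covered the whole DMSO peak at 685 sites (33.6%), and the median share of a DMSO peak that it covered was 77.8%.

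Most MAF9-specific sites still carried H3K4me2 in the Mll1 flox cells. H3K4me2 was called over 1784 of the 2039 sites (87.5%, 86.0 to 88.9%) in both EtOH and 4OHT, and over 1766 (86.6%) in all 4 lists. It was called in EtOH but not 4OHT at 78 sites and in 4OHT but not EtOH at 37. At 140 sites neither Mll1 flox list held an H3K4me2 peak. Of these, 93 had H3K4me2 under MM-401 and 47 had it under DMSO only.

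**Figure D1:**
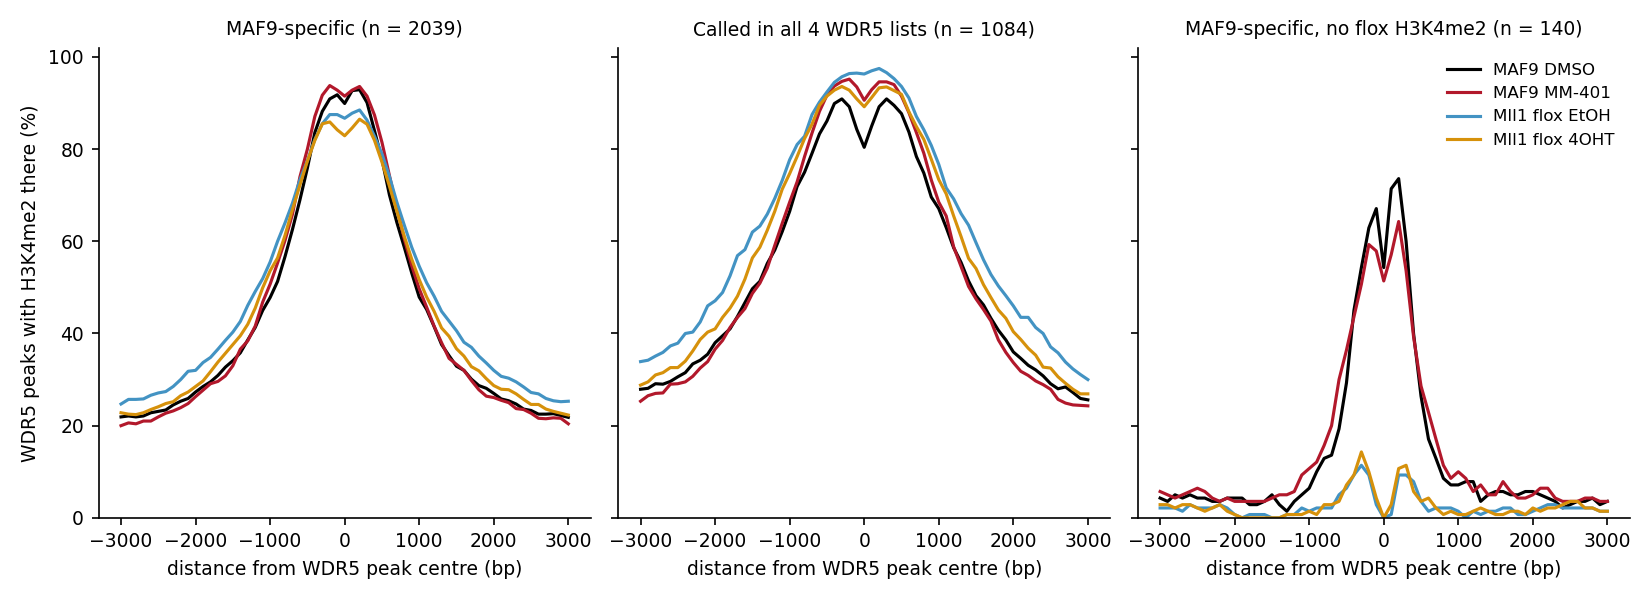
Share of WDR5 peaks (%, y axis) with an H3K4me2 peak at each distance from the WDR5 peak centre (bp, x axis, to 3 kb on each side), with 1 line for each of the 4 H3K4me2 lists. At the centre of the 2039 MAF9-specific peaks the lines reach 89.9% for DMSO, 91.5% for MM-401, 86.7% for EtOH and 82.9% for 4OHT. At the 1084 shared peaks they reach 80.4%, 90.6%, 96.3% and 89.2% in the same order. All peaks of both sets were chosen to overlap DMSO H3K4me2, so the DMSO line is shaped by that choice. The third panel holds the 140 MAF9-specific sites without H3K4me2 in EtOH and 4OHT, which were chosen for that absence.

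H3K4me2 was nevertheless missing more often than at shared peaks, in each of the 3 H3K4me2 lists that the rule did not use. In EtOH it was missing at 177 MAF9-specific sites, or 8.68% (7.54 to 9.98%), beside 3.80% of all 12190 narrow autosomal DMSO WDR5 peaks in H3K4me2, which serve as the background here. In 4OHT it was missing at 218 sites, or 10.7% (9.42 to 12.1%), beside a background of 4.74%. It was missing from both Mll1 flox lists at 6.87% (5.85 to 8.05%), beside a background of 2.72%. Under MM-401, in the MAF9 cells themselves, it was missing at 77 sites, or 3.78% (3.03 to 4.69%), beside a background of 1.96%. The background holds the MAF9-specific peaks too. The rule and the shared set did use Mll1 flox WDR5, and 12190 of the 13744 narrow autosomal DMSO WDR5 peaks lay in H3K4me2. The EtOH and 4OHT shares are therefore not independent of the choice of peaks. How much of their differences follows from that choice was not tested.

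At the shared peaks H3K4me2 was missing from EtOH at 0.830%, from 4OHT at 1.94%, from both at 0.461% and from MM-401 at 1.11%. The differences between MAF9-specific and shared peaks were 7.85 points (6.49 to 9.21) in EtOH, 8.75 points (7.14 to 10.3) in 4OHT and 6.40 points (5.22 to 7.61) for both lists. For MM-401 the difference was smaller, 2.67 points (1.56 to 3.70), and its interval also lay above 0. Peaks called in 1 Mll1 flox WDR5 list lay between the shared and the MAF9-specific peaks. In EtOH, H3K4me2 was missing at 1.97% (1.28 to 3.02%) of the peaks called in EtOH only and at 2.71% (1.70 to 4.29%) of those called in 4OHT only. In 4OHT it was missing at 4.04% (2.99 to 5.43%) and 3.98% (2.71 to 5.81%). Of these 4 shares, the 4OHT-only share in EtOH and the EtOH-only share in 4OHT had intervals apart from those of the shared peaks, 0.437 to 1.57% in EtOH and 1.27 to 2.94% in 4OHT. H3K4me2 was missing from both Mll1 flox lists at 0.887% of the peaks called in EtOH only and at 1.43% of those called in 4OHT only, and the MAF9-specific share exceeded these by 5.98 points (4.69 to 7.23) and 5.43 points (3.81 to 6.79).

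**Figure D2:**
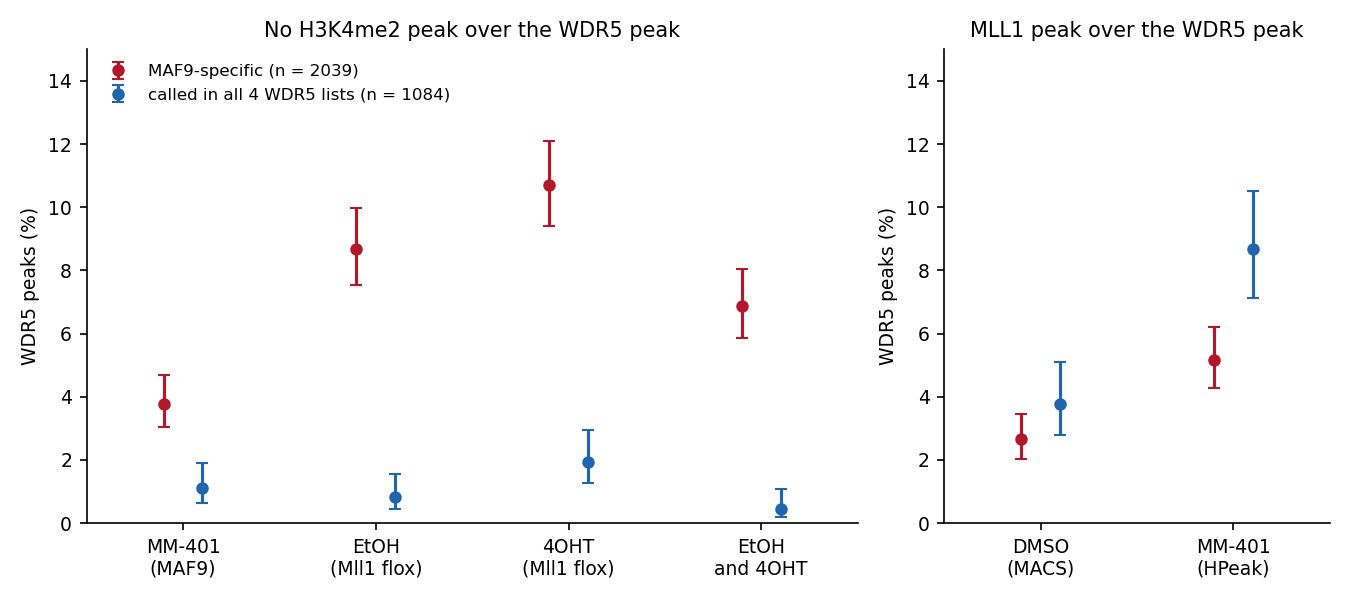
Share of WDR5 peaks (%, y axis) without H3K4me2 in each list (left) and with an MLL1 peak (right), for the 2039 MAF9-specific and the 1084 shared peaks, with bars for 95% Wilson intervals. The MAF9-specific share without H3K4me2 is the higher one in each case, up to 10.7% in 4OHT, and their share with MLL1 is the lower one, with overlapping intervals in DMSO and separate ones under MM-401. The 2 MLL1 lists came from different peak callers. Both sets were chosen by Mll1 flox WDR5, which is not independent of Mll1 flox H3K4me2.

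Across widths of the WDR5 peak itself, the share of MAF9-specific sites without H3K4me2 in both Mll1 flox lists was 8.25% at 75 to 100 bp, 7.39% at 101 to 200 bp, 7.28% at 201 to 300 bp and 3.26% (1.78 to 5.89%) at 301 to 500 bp. The shared peaks in the same classes gave 4.65% of only 43 peaks, 1.04%, 0% and 0.192% (0.0339 to 1.08%). The intervals lay apart from 101 bp upward and overlapped in the narrowest class, where the shared peaks' interval ran from 1.28 to 15.5%.

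The H3K4me2 peak around a site, here its host, was narrower for MAF9-specific peaks than for shared ones. Broad H3K4me2 domains are known from promoters and from clustered enhancers, and short peaks from single elements. The DMSO host had a median width of 1750 bp (1700 to 1800 bp) with quartiles of 1050 and 2925 bp and a range of 75 to 31325 bp. The shared peaks had hosts of 2150 bp (2025 to 2225 bp) at the median, and the 12190 background peaks 2125 bp. Hosts of 75 to 500 bp held 215 MAF9-specific sites and 44 shared ones.

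Absence of H3K4me2 from the Mll1 flox lists was concentrated in short hosts. In DMSO hosts of 75 to 500 bp, 81 of 215 MAF9-specific sites (37.7%, 31.5 to 44.3%) had no H3K4me2 in EtOH and 4OHT, against 2 of 44 shared sites (4.55%, 1.26 to 15.1%). In hosts of 501 to 1000 bp the counts were 35 of 270 (13.0%, 9.47 to 17.5%) and 2 of 123 (1.63%, 0.447 to 5.74%). In hosts of 1001 to 2000 bp they were 20 of 672 (2.98%, 1.93 to 4.55%) and 1 of 339 (0.295%, 0.0521 to 1.65%). At hosts of the same width class, MAF9-specific sites thus lacked Mll1 flox H3K4me2 more often, with intervals apart in each of these 3 classes. In wider hosts the absence was rare for both, with 4 of 693 MAF9-specific and 0 of 469 shared sites at 2001 to 5000 bp, and 0 of 189 and 0 of 109 sites above 5000 bp.

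**Figure D3:**
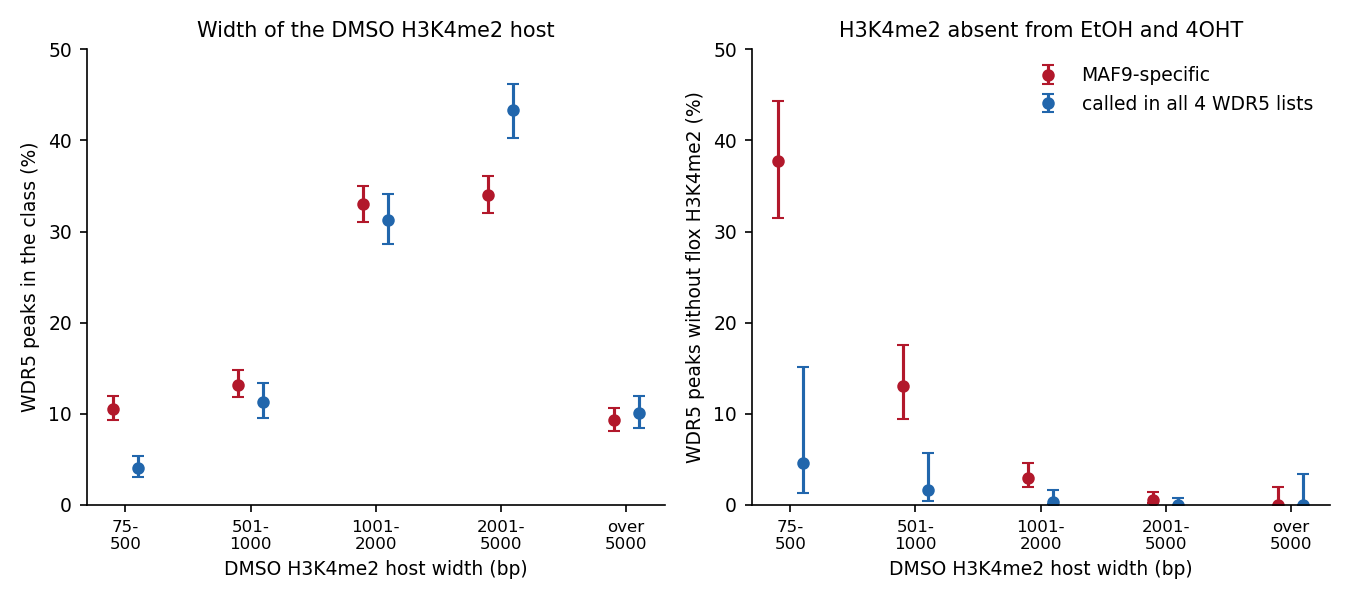
Width of the DMSO H3K4me2 host (bp, x axis) against the share of each set in the class (%, left) and against the share without H3K4me2 in EtOH and 4OHT (%, right), for MAF9-specific and shared WDR5 peaks with 95% Wilson bars. The share without Mll1 flox H3K4me2 falls from 37.7% in the shortest hosts of MAF9-specific peaks to 0% above 5000 bp, and stays at 4.55% or less for shared peaks.

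Absence of H3K4me2 under MM-401 was also concentrated in short hosts. It was missing at 56 of 215 MAF9-specific sites (26.0%, 20.6 to 32.3%) in hosts of 75 to 500 bp and at 16 of 270 (5.93%) in hosts of 501 to 1000 bp. In hosts of 1001 to 2000 bp it was missing at 5 of 672, and at none of 693 and 189 sites in the wider classes. Shared peaks in the same classes gave 5 of 44 (11.4%, 4.95 to 24.0%), 4 of 123 (3.25%), 2 of 339, 1 of 469 and 0 of 109. For MM-401 the intervals of MAF9-specific and shared peaks thus overlapped in each host class, which does not show that the shares were equal. The MAF9-specific share was the higher one in each class up to 2000 bp, and intervals of the differences by class were not computed. The 140 sites without Mll1 flox H3K4me2 had DMSO hosts of 388 bp at the median (325 to 525 bp) and of 3150 bp at most. The 1784 sites with H3K4me2 in both Mll1 flox lists had hosts of 1950 bp (1850 to 2050 bp). The WDR5 peak had a median width of 200 bp in both, so the sites differed in the host and not in the median width of the WDR5 call.

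At the 1766 sites with H3K4me2 in all 4 lists, the median H3K4me2 peak measured 1975 bp in DMSO. It measured 2200 bp under MM-401, 2625 bp in EtOH and 2275 bp in 4OHT. It was wider under MM-401 than in DMSO at 1000 sites (56.6%) and narrower at 729. It was narrower in 4OHT than in EtOH at 1177 sites (66.6%) and wider at 557. It was wider in EtOH than in DMSO at 1282 sites (72.6%). The 1053 shared sites with H3K4me2 in all 4 lists moved the same ways, with medians of 2175, 2525, 3400 and 2725 bp in the same order. Peak width also depends on the depth of each library, which is unknown.

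By bases, the DMSO hosts of MAF9-specific sites were covered by H3K4me2 to 93.4% under MM-401, 93.2% in EtOH and 91.3% in 4OHT. Shared sites gave 94.2%, 96.9% and 94.9%.

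The 2039 MAF9-specific peaks lay in 1996 different hosts, of which 1953 held 1 of them and 43 held 2, so they were mostly separate sites. The MAF9-specific peak was the only DMSO WDR5 peak of its host in 1656 cases (81.2%, 79.5 to 82.9%), against 74.9% (72.2 to 77.4%) of shared peaks. It lay wholly inside its host in 1673 cases (82.1%, 80.3 to 83.7%), against 66.0% of shared peaks. Its centre fell in the central one of 3 equal segments of the host in 940 cases (46.1%, 43.9 to 48.3%), against 36.8% (34.0 to 39.7%). Shared WDR5 peaks were wider, at a median of 300 against 200 bp, and these shares were not matched for width. For 812 MAF9-specific peaks (39.8%, 37.7 to 42.0%) the host held a Mll1 flox WDR5 peak at another position, from EtOH in 536 and from 4OHT in 578. In the remaining 1227 (60.2%, 58.0 to 62.3%) no Mll1 flox WDR5 peak was called anywhere in the host.

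The distance to the nearest Mll1 flox WDR5 peak ran from touching to 274451 bp, with a median of 2076 bp and quartiles of 276 and 9501 bp. A gap is counted from edge to edge, with 1 bp for touching peaks. The nearest such peak lay within 100 bp of 268 MAF9-specific peaks (13.1%), within 2 kb of 1008 (49.4%) and beyond 10 kb of 485 (23.8%). Many of the sites were thus missing a WDR5 call at the exact position and not in the neighbourhood.

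The sites far from Mll1 flox WDR5 were those that most often lacked Mll1 flox H3K4me2. The gap was measured on the WDR5 lists that the rule used. Narrow DMSO WDR5 peaks mostly lay in H3K4me2, so the gap and Mll1 flox H3K4me2 are not independent measures. The share without H3K4me2 in EtOH and 4OHT was 3 of 268 sites at gaps of 1 to 100 bp, 4 of 400 at 101 to 500 bp, 6 of 340 (1.76%) at 501 to 2000 bp, 6.59% (4.80 to 8.99%) at 2001 to 10000 bp and 18.8% (15.5 to 22.5%) above 10000 bp. The median DMSO host narrowed over the same classes from 2425 bp through 2312.5, 2200 and 1487.5 bp to 1150 bp. Within hosts of one width class the absence was also most frequent at the largest gaps. In hosts of 75 to 500 bp it was found at 25 of 74 sites (33.8%, 24.0 to 45.1%) at 2001 to 10000 bp and at 46 of 95 (48.4%, 38.6 to 58.3%) above 10000 bp, and in hosts of 501 to 1000 bp at 9 of 88 (10.2%, 5.47 to 18.3%) and 24 of 108 (22.2%, 15.4 to 30.9%), so the intervals of these neighbouring classes overlapped. In hosts of 1001 to 2000 bp they lay apart, with 2 of 196 (1.02%, 0.280 to 3.64%) and 17 of 190 (8.95%, 5.66 to 13.9%).

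**Figure D4:**
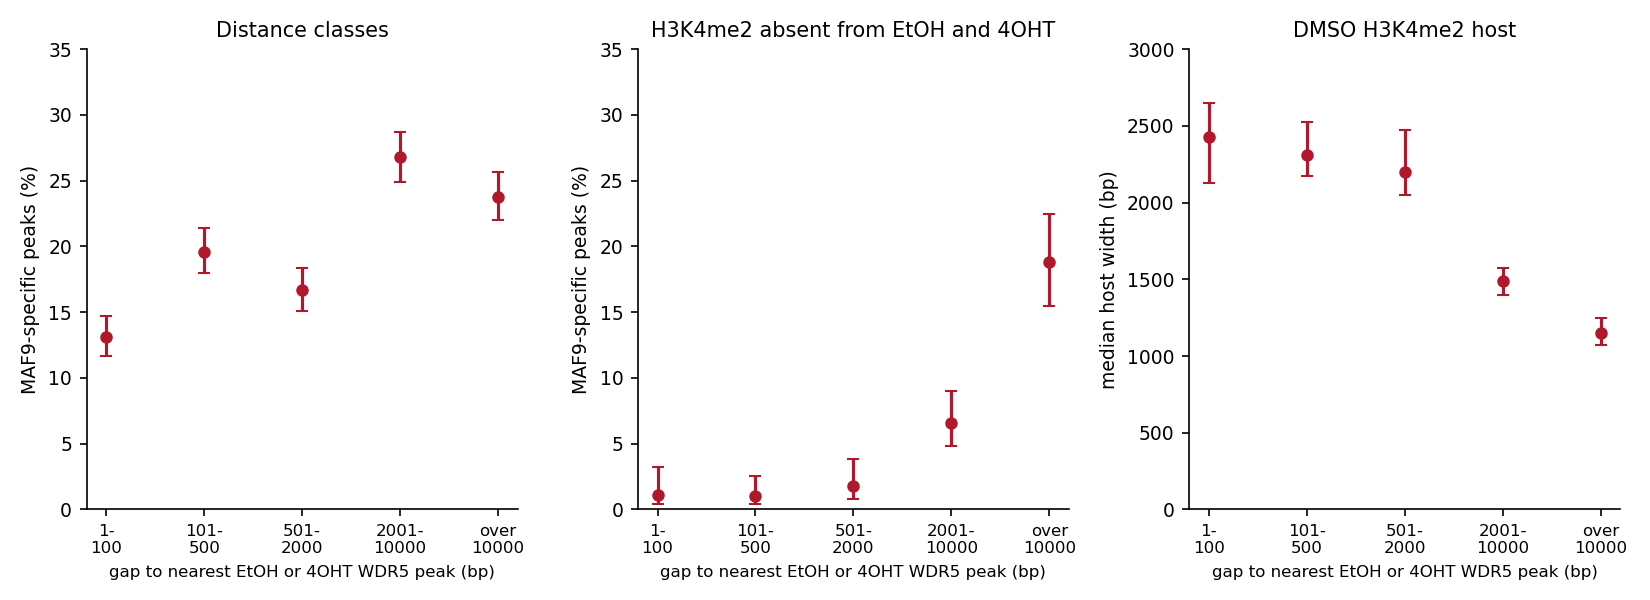
Gap from each MAF9-specific WDR5 peak to the nearest EtOH or 4OHT WDR5 peak (bp, x axis) against the share of the 2039 peaks in the class (%, left), the share without H3K4me2 in EtOH and 4OHT (%, middle) and the median DMSO H3K4me2 host width (bp, right), with 95% intervals. Above 10000 bp, 18.8% lack Mll1 flox H3K4me2 and the median host is 1150 bp. The gap comes from WDR5 lists that the rule used and is not independent of Mll1 flox H3K4me2.

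Of the 140 sites without Mll1 flox H3K4me2, 91 (65.0%) lay more than 10 kb from any Mll1 flox WDR5 peak, and the median gap was 13751 bp. Their nearest Mll1 flox H3K4me2 peak was 3113.5 bp away at the median. It was within 100 bp at 35 sites and within 2 kb at 64, and beyond 10 kb at 55, so the absence covered both near misses at an edge and regions without any H3K4me2 call nearby.

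Outside chromosome 18, which holds the widest host of 3150 bp, the 3 of these sites with the widest DMSO hosts differed in this respect. Positions are in mm9. At chr4:48565676-48565850 the H3K4me2 peak was 2375 bp wide in DMSO and 2675 bp under MM-401, and the nearest H3K4me2 lay 151 bp away in EtOH and 251 bp away in 4OHT. At chr2:51455076-51455225 the widths were 2100 and 2200 bp, and the nearest H3K4me2 lay 1026 and 9201 bp away. The chr11:67613726-67614000 site had widths of 2050 and 2325 bp, and no H3K4me2 was called within 120901 bp in EtOH or 121101 bp in 4OHT. Each of the 3 hosts held 1 DMSO WDR5 peak.

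The 3 peaks farthest from Mll1 flox WDR5, with nearest calls 189826 to 274451 bp away, also differed in H3K4me2. At chr8:24622301-24622525 the gaps were 303201 bp in EtOH and 274451 bp in 4OHT, the DMSO and MM-401 hosts were both 1950 bp wide, and Mll1 flox H3K4me2 stopped 226 and 151 bp short of the peak. At chr1:92131276-92131475 the gaps were 233201 and 267176 bp, the hosts were 325 and 350 bp wide, and Mll1 flox H3K4me2 lay 291326 bp away in both lists. The chr9:75944776-75945100 peak, 189826 and 235976 bp from Mll1 flox WDR5, kept H3K4me2 in all 4 lists, at 950 bp in DMSO, 575 bp under MM-401, 450 bp in EtOH and 500 bp in 4OHT.

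In the 3 widest hosts WDR5 was called within 1226 bp in the Mll1 flox cells. The host at chr16:49857901-49889225 was 31325 bp wide in DMSO, 14825 bp under MM-401, 31675 bp in EtOH and 21975 bp in 4OHT, and held a peak at chr16:49859126-49859350. The host at chr10:20850401-20878975 measured 28575, 20400, 33975 and 26000 bp. It contained 4 DMSO, 9 EtOH and 3 4OHT WDR5 peaks, and its MAF9-specific peak at chr10:20866576-20866775 lay 326 bp from the nearest EtOH and 276 bp from the nearest 4OHT WDR5 peak. The host at chr15:77643801-77671850 measured 28050, 15100, 16750 and 16975 bp, with its peak at chr15:77662551-77662625 lying 426 and 251 bp from Mll1 flox WDR5. These hosts were picked for their width in DMSO, so nothing is read from their narrower width under MM-401, and over all 1766 sites with H3K4me2 in all 4 lists the peak was wider under MM-401 at 56.6%.

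The 3 widest MAF9-specific peaks, each of 500 bp, had H3K4me2 in all 4 lists. Around chr1:112047251-112047750 the H3K4me2 peak was 1675 bp wide in DMSO, 1800 bp under MM-401, 1625 bp in EtOH and 1425 bp in 4OHT, and the nearest Mll1 flox WDR5 peak was 68351 bp away. Around chr1:130357301-130357800 the 4 widths were 4875, 4875, 5450 and 5375 bp, with EtOH WDR5 at 626 bp. Around chr2:72887151-72887650 they were 3550, 3450, 3875 and 3650 bp, with 4OHT WDR5 at 351 bp and a DMSO MLL1 peak over the site. The first of the hosts that held 2 MAF9-specific peaks, chr1:37373651-37376425, was 2775 bp wide and carried them at chr1:37374901-37374975 and chr1:37375026-37375150, so this pair is not 2 independent sites.

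MLL1, the methyltransferase whose contact with WDR5 is blocked by MM-401, was called over few MAF9-specific peaks. The DMSO MLL1 list came from MACS and the MM-401 list from HPeak, so the lists are not compared with each other. In DMSO, MLL1 lay over 54 of 2039 MAF9-specific peaks, or 2.65% (2.04 to 3.44%), beside a background of 3.35% and 3.78% (2.80 to 5.09%) of shared peaks. The difference from shared peaks was -1.13 points (-2.58 to 0.127), an interval that includes 0. Under MM-401, MLL1 lay over 105, or 5.15% (4.27 to 6.20%), beside a background of 6.15% and 8.67% (7.14 to 10.5%) of shared peaks, a difference of -3.52 points (-5.55 to -1.67). From the peaks called in EtOH only the MM-401 share differed by -0.762 points (-2.61 to 0.900) and from those called in 4OHT only by -1.38 points (-3.76 to 0.600).

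Either MLL1 list touched 154 MAF9-specific peaks, or 7.55%, beside a background of 9.14% and 11.7% of shared peaks. Both lists did so at 5 peaks, or 0.245%, beside a background of 0.361%. Within 2 kb, MLL1 was called near 249 MAF9-specific peaks in DMSO (12.2%, 10.9 to 13.7%, beside a background of 17.3%) and near 585 under MM-401 (28.7%, 26.8 to 30.7%, beside a background of 37.6%). The shared peaks gave 19.1% and 39.5%, and the differences of -6.88 points (-9.68 to -4.20) and -10.8 points (-14.3 to -7.30) lay below 0. In DMSO the interval of the difference from shared peaks thus lay below 0 for MLL1 within 2 kb and included 0 for MLL1 directly over the peak. From peaks called in EtOH only, the DMSO share within 2 kb differed by -1.38 points (-4.01 to 1.09). Within each DMSO host class the MAF9-specific shares within 2 kb were below the shared ones. In DMSO these intervals overlapped in every class. Under MM-401 they lay apart only at 1001 to 2000 bp, at 18.9% (16.1 to 22.0%) against 29.8% (25.2 to 34.9%). Anywhere in the DMSO host, MLL1 was called for 246 MAF9-specific peaks in DMSO (12.1%) and 521 under MM-401 (25.6%), against 17.3% and 34.4% of shared peaks.

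MLL1 was more frequent in wide hosts. Under MM-401 it lay over 5 of 215 MAF9-specific peaks (2.33%) in DMSO hosts of 75 to 500 bp, 8 of 270 (2.96%) at 501 to 1000 bp, 16 of 672 (2.38%) at 1001 to 2000 bp, 52 of 693 (7.50%) at 2001 to 5000 bp and 24 of 189 (12.7%) above 5000 bp. In DMSO the counts in the same classes were 0, 2, 17, 28 and 7. In 1 host class, 1001 to 2000 bp, the MM-401 share stood apart from that of shared peaks, at 2.38% (1.47 to 3.83%) against 29 of 339, or 8.55% (6.02 to 12.0%). Hosts of 2001 to 5000 bp gave 7.50% (5.77 to 9.71%) for MAF9-specific and 9.81% (7.43 to 12.8%) for shared peaks, with overlapping intervals. Above 5000 bp the MAF9-specific share was the higher one, 12.7% (8.68 to 18.2%) against 10.1% (5.73 to 17.2%), again with overlap. In DMSO the wide hosts gave nearly equal shares, 4.04% and 4.05% at 2001 to 5000 bp and 3.70% and 3.67% above 5000 bp. By WDR5 width, peaks of 301 to 500 bp gave 6.19% (4.00 to 9.46%) and 9.98% (7.69 to 12.9%) under MM-401, which also overlapped. In each narrower WDR5 class the MM-401 intervals overlapped too.

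MLL1 was called at few of the sites without Mll1 flox H3K4me2, of which 81 of 140 lay in DMSO hosts of 75 to 500 bp. None of the 140 had DMSO MLL1 over it (0%, interval to 2.67%), against 54 of the other 1899 (2.84%, 2.19 to 3.69%), and 4 had MM-401 MLL1 (2.86%, 1.12 to 7.12%), against 101 (5.32%, 4.40 to 6.42%). These intervals overlapped. Within 2 kb they lay apart, with 3 of 140 (2.14%, 0.731 to 6.11%) against 13.0% (11.5 to 14.5%) in DMSO and 17 of 140 (12.1%, 7.72 to 18.6%) against 29.9% (27.9 to 32.0%) under MM-401. All MAF9-specific sites in hosts of 75 to 500 bp gave like shares, with MLL1 within 2 kb at 3.26% (1.59 to 6.57%) in DMSO and 10.7% (7.23 to 15.5%) under MM-401.

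Of the 5 peaks with MLL1 in both lists, the 3 widest had H3K4me2 in all 4 lists. The peak at chr13:114223676-114224150 lay in a DMSO host of 3525 bp and touched a 4OHT WDR5 peak. The peak at chr1:84931326-84931650 lay in a host of 3325 bp with an EtOH WDR5 peak 1101 bp away. The peak at chr17:49568401-49568700 lay in a DMSO host of 7250 bp, with an H3K4me2 width of 3575 bp under MM-401, 9025 bp for EtOH and 8600 bp for 4OHT, and with 4OHT WDR5 at 451 bp. Each of the 3 hosts held a Mll1 flox WDR5 peak beside the site.

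Chromosome 1 held 295 of the 2039 MAF9-specific peaks, or 14.5% (13.0 to 16.1%), beside a background of 10.9%. It held 121 of the 1084 shared peaks, or 11.2% (9.42 to 13.2%), a difference of 3.31 points (0.818 to 5.66). The converse set, in which an EtOH WDR5 peak met the same limits in EtOH H3K4me2 and 4OHT WDR5 but no MAF9 WDR5 list, comprised 2486 Mll1 flox-specific peaks of 5109 eligible ones. Chromosome 1 held 98 of these, or 3.94% (3.25 to 4.78%), which is 10.5 points (8.84 to 12.3) below the MAF9-specific share. The 2 lists already differed, since chromosome 1 held 6.72% of the 17830 narrow autosomal EtOH WDR5 peaks in EtOH H3K4me2. Of the eligible DMSO peaks on chromosome 1, 48.8% (44.9 to 52.8%) were MAF9-specific, against 41.9% (40.4 to 43.4%) on the other autosomes. Chromosome 1 was not the highest by this measure, which ran from 34.6% (29.6 to 40.1%) on chromosome 11 to 51.5% (41.8 to 61.1%) on chromosome 18.

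**Figure D5:**
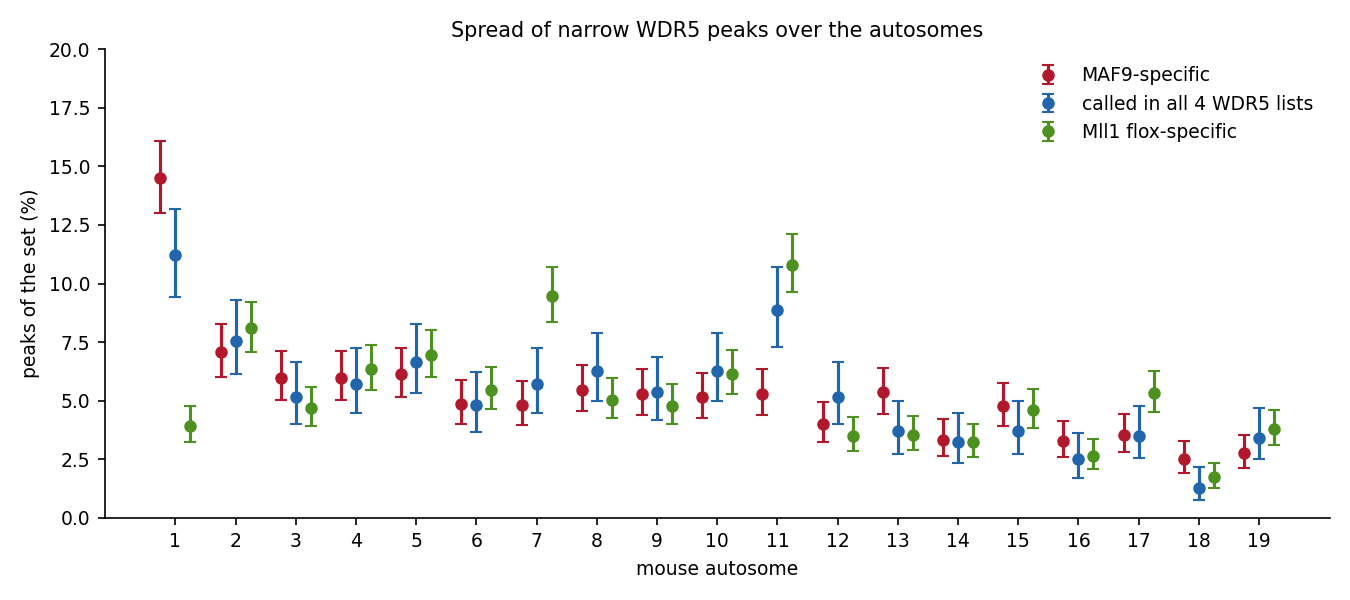
Share of each set of narrow WDR5 peaks (%, y axis) on each of the 19 autosomes (x axis), for MAF9-specific, shared and Mll1 flox-specific peaks, with 95% Wilson bars. On chromosome 1 the MAF9-specific share is 14.5% and the Mll1 flox-specific share 3.94%, and on chromosome 11 the order is turned round, with 5.30% against 10.8%.

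The MAF9-specific share lay above the Mll1 flox-specific share, with intervals apart, on 2 chromosomes (1 and 13) and below it on 3 (7, 11 and 17). On chromosome 11 it was 5.30%, against 6.74% of background, 8.86% of shared and 10.8% of Mll1 flox-specific peaks. On chromosome 7 it was 4.81%, against 6.13% of background and 9.45% of Mll1 flox-specific peaks. The background here is that of the DMSO list. The Mll1 flox background is given for chromosome 1 only. Whether the whole DMSO and EtOH lists already differed on chromosomes 7, 11, 13 and 17 was not tested. Against the shared peaks, chromosome 11 was the one chromosome whose intervals lay apart. Chromosome 1 and these chromosomes entered the comparison after the series' chromosome counts were known, so their choice is not independent of the values.

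The chromosome 1 peaks were spread along the chromosome. All of its 20 windows of 10 Mb held between 2 and 28 MAF9-specific peaks, with a median of 14.5, while the 231 windows of other autosomes had a median of 7.00 and reached 21 at most. Eligible peaks were likewise denser on chromosome 1, with a median of 32.0 in a window against 17.0 elsewhere. The window with the most ran from 180000001 to 190000000, where 28 of 57 eligible peaks were MAF9-specific. By WDR5 width, chromosome 1 held 12.4% of MAF9-specific peaks at 75 to 100 bp, 14.4% at 101 to 200 bp, 13.1% at 201 to 300 bp and 19.5% at 301 to 500 bp. The shared peaks gave 4.65%, 8.81%, 10.1% and 13.2%, also highest in the widest class. The DMSO hosts on chromosome 1 had a median width of 1775 bp (1625 to 2050 bp), against 1750 bp (1675 to 1800 bp) elsewhere, so the hosts did not differ beyond their intervals.

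Chromosome 1 also held 36 of the 140 sites without Mll1 flox H3K4me2 (25.7%). The share of MAF9-specific sites without it was 12.2% (8.95 to 16.4%) on chromosome 1 and 5.96% (4.95 to 7.17%) on the other autosomes, a difference of 6.24 points (2.77 to 10.6). In DMSO hosts of 75 to 500 bp it was missing at 21 of 32 sites on chromosome 1 (65.6%, 48.3 to 79.6%) and at 60 of 183 elsewhere (32.8%, 26.4 to 39.9%). In hosts of 501 to 1000 bp it was missing at 11 of 29 (37.9%, 22.7 to 56.0%) and 24 of 241 (9.96%, 6.78 to 14.4%). In hosts of 1001 to 2000 bp the intervals overlapped, at 4 of 101 (3.96%) and 16 of 571 (2.80%). Of the 20 windows on chromosome 1, 14 held such a site, with up to 5 in a window, against up to 2 in a window elsewhere. Over all eligible peaks, which include the MAF9-specific ones, the share without it was 6.46% (4.76 to 8.71%) on chromosome 1 and 2.98% (2.50 to 3.54%) elsewhere. The shared peaks gave 0.826% (0.146 to 4.53%) and 0.415% (0.162 to 1.06%), with overlapping intervals.

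Within MAF9 cells the intervals for chromosome 1 and the other autosomes were not apart. H3K4me2 was missing under MM-401 at 16 of its 295 sites (5.42%, 3.37 to 8.63%) and at 3.50% (2.73 to 4.47%) of the others. MLL1 lay over 3.39% (1.85 to 6.13%) of its sites in DMSO and 5.42% (3.37 to 8.63%) under MM-401, against 2.52% (1.88 to 3.37%) and 5.10% (4.17 to 6.24%) elsewhere. The chromosome 1 share was the higher one in all 3 pairs, and all 3 pairs of intervals overlapped, which does not show that the shares were equal.

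In the converse direction, 82 of the 2486 Mll1 flox-specific peaks (3.30%, 2.67 to 4.08%) had no H3K4me2 in either MAF9 list, beside 4.40% of the 17830 background peaks of that side and 2.04% (1.36 to 3.04%) of its 1127 peaks called in all 4 WDR5 lists. On the MAF9 side, 6.87% lay above both the background and the shared peaks. The converse share lay below its background and above its peaks called in all 4 WDR5 lists, with overlapping intervals. H3K4me2 was missing from DMSO at 13.2% (11.9 to 14.5%), beside a background of 10.7% and 8.16% (6.70 to 9.91%) of the peaks called in all 4 WDR5 lists. From MM-401 it was missing at 4.51% (3.76 to 5.39%), beside a background of 6.71% and 2.84% (2.02 to 3.98%) of the peaks called in all 4. An excess over peaks called in all 4 WDR5 lists was thus not particular to the MAF9 side. The EtOH hosts of Mll1 flox-specific peaks were wider, with a median of 3900 bp. In hosts of 75 to 500 bp the absence was 18 of 63 (28.6%, 18.9 to 40.7%), which overlapped the 37.7% (31.5 to 44.3%) of MAF9-specific sites, and in hosts of 501 to 1000 bp it was 4 of 59 (6.78%, 2.67 to 16.2%), which overlapped 13.0% (9.47 to 17.5%). In hosts of 2001 to 5000 bp it was 2.38% (1.67 to 3.37%), above the 0.577% (0.225 to 1.47%) of MAF9-specific sites.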

How the data were processed

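The authors deposited 1 list of peak positions (chromosome, start and end) for each of 10 ChIP libraries, with no score, height or read count. The 4 inputs of the 14 samples were not analysed here. The submitters' processing notes name Bowtie and mm9. On a 25 bp grid and with HPeak names, 9 lists were read as 1-based and inclusive, and the DMSO MLL1 list, which the study's methods place with MACS, was read with 0-based starts. HPeak thresholds and filters are not given in the sources used here. Peaks overlapped when 1 bp was shared, and the widest H3K4me2 peak over a site was its host. Overlaps were computed with Python 3.11.15 and numpy 2.4.6, drawn with matplotlib 3.10.9, and tested on simulated data, where 100% of calls were correct and counts equalled those of bedtools 2.31.1. As each condition had 1 library, conditions were not tested against each other and no p-values were computed.

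The members, comparison sets and classes were chosen with earlier results of these data known. The regions named are the 3 widest peaks, the 3 in the widest hosts, the first host with most members, the 3 widest-hosted sites without Mll1 flox H3K4me2, the 3 widest with MLL1 in both lists, the 3 farthest from Mll1 flox WDR5 and the fullest 10 Mb window. Regions of chromosome 18 were left out of these choices. No mm9 genome or annotation was used here, so neither genes nor sequences are given.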

Additional observations from a re-analysis of the deposited data

Results flagged for a closer look

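At the 1766 MAF9-specific sites with H3K4me2 in all 4 lists, the median H3K4me2 width moved in opposite directions under the 2 treatments. It was 225 bp larger under MM-401 than in DMSO (2200 against 1975 bp) and fell by 350 bp from EtOH to 4OHT (2275 against 2625 bp). Whether the 2 changes differ was not tested, since each condition had 1 library. Shared peaks showed the same directions, with 350 bp more under MM-401 and a change of -675 bp under 4OHT, so the pattern was not particular to MAF9-specific peaks. Library depth was not given and its part in the widths was not tested.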

How the results depend on the processing

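No paired analysis was possible because each condition and antibody had 1 library, which leaves a single replicate number, too few to pair samples. Leaving out a replicate was not possible for the same reason. Over 9 planned and 2 added settings, 59 of 95 alternative values stayed within the interval of the reported value, or for the number of peaks within 1.5 times it, and 36 did not. The causes were not tested. The share on chromosome 1 moved beyond its interval in no setting run.

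With no EtOH or 4OHT WDR5 peak allowed within 2 kb, a stricter choice on the same lists as the rule, 1031 peaks (21.6% of eligible) were left. H3K4me2 was then missing at 15.3% in EtOH, 18.9% in 4OHT, 12.3% in both and 5.92% under MM-401, MLL1 lay over 1.65% in DMSO and 3.10% under MM-401, and the median host was 1325 bp. Counting H3K4me2 and MLL1 within 2 kb as present lowered the missing shares to 4.66%, 5.44%, 3.73% and 1.13% and raised the MLL1 shares to 12.2% and 28.7%. Requiring 50% of the WDR5 peak to be covered gave 58.1% of eligible peaks, MLL1 over 0.859% and 1.92%, and a host of 1875 bp. The share of eligible peaks was 49.9% at a width limit of 300 bp and 39.7% with no limit. With the Mll1 flox WDR5 lists reduced to as many of their widest peaks as DMSO had, it was 54.5%, and H3K4me2 was missing at 7.16% in EtOH, 9.40% in 4OHT and 5.62% in both. With 4OHT WDR5 ignored, these values were 56.0%, 7.27%, 9.11% and 5.59%, and the host 1825 bp. Joining H3K4me2 peaks up to 1 kb apart gave 8.90% missing in 4OHT, 2.71% under MM-401 and a host of 2675 bp.

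Chosen after seeing the data, a limit of 10 kb to Mll1 flox WDR5 left 485 peaks, with H3K4me2 missing at 21.9% in EtOH, 26.2% in 4OHT and 18.8% in both. That limit, too, selects on the Mll1 flox WDR5 lists that the rule used. With all 4 WDR5 lists reduced to the DMSO length, also added, chromosome 1 held 13.9% of MAF9-specific and 4.23% of Mll1 flox-specific peaks. Depth could not be assessed, so a site below the calling limit cannot be told apart from one without binding.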
